A study of Taeniopygia guttata with 21 samples.

Results

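Anterior skin was set against posterior skin on both sides of the trunk of the zebra finch (Taeniopygia guttata) embryo. The 12 libraries compared, of 21 in all, were the dorsal anterior, ventral anterior, dorsal posterior and ventral posterior pieces, with 3 libraries at each location. They were chosen by their location labels, and the contrast was the mean of the 2 anterior locations minus the mean of the 2 posterior locations. All libraries came from wild-type skin at Hamburger-Hamilton stage HH28, before feathers form, with no treatment, and the labels name no sex. The study looked for molecules restricted to the future colour domains of the skin; the 9 other libraries, from the dorsal saddle, the ventral-most skin and the flank, entered the estimate of spread and are described here only as locations between or beside the ends. The labels do not say that the libraries of a location came from separate animals, so the p-values measure the spread between these libraries. The numbers 3, 8 and 11 recur at every location, and library names below give the location and that number.

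Regional identity along the body axis of a vertebrate embryo is set by HOX genes, which code for homeodomain transcription factors and sit in 4 clusters. Genes at the low-numbered end of a cluster are active further towards the head, and genes at the high-numbered end further towards the tail; fibroblasts of the skin are known to keep such a positional pattern. Retinoic acid, WNT, FGF and BMP signals act on this pattern in the embryo and later take part in placing feather buds and pigment cells.

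A gene was called when its limma p-value, adjusted by Benjamini-Hochberg over the 14005 genes tested, was under 0.05. Differences are anterior minus posterior on the log2(normalised value + 1) scale, so a positive one means a higher level in anterior skin. The added 1 makes differences of low values smaller than they are. Of the genes tested, 1034 were called (7.38%), 506 higher (3.61%) and 528 lower (3.77%) in anterior skin. The difference had the same sign on the dorsal and the ventral side for 945 of them (6.75% of genes tested), 472 higher (3.37%) and 473 lower (3.38%) in anterior skin. The other 89 called genes had opposite signs on the 2 sides and are left out of the counts of same-sign genes below. Over all genes tested, 55.4% had the same sign on both sides, and the dorsal and ventral differences correlated at 0.18 (Pearson). A contrast that averages the sides favours genes with the same sign, so the same-sign share of called genes does not measure agreement between the sides. Among the 945 same-sign genes the median size of the difference was 0.96, against 0.18 over all genes tested. At least a 2-fold difference was seen for 208 higher and 245 lower genes, and at least a 4-fold difference for 87 higher and 86 lower genes.

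The contrast averages the sides, and so a same-sign gene need not differ on each of them. Dorsal anterior against dorsal posterior skin gave 740 called genes (5.28%), and ventral anterior against ventral posterior skin gave 589 (4.21%). The sides shared 106 called genes, which is 14.3% of the dorsal and 18.0% of the ventral calls, and 18 of these went opposite ways. The 88 others were called in the same direction on each side by itself (0.628% of genes tested), 39 higher and 49 lower in anterior skin. Of the 945 same-sign genes, 291 were called dorsally and not ventrally, 271 ventrally and not dorsally, and 295 on neither side alone; a call on 1 side and not on the other does not show that the sides differ. The difference between sides was itself called for 80 of the 945 genes, and for 411 of all genes tested (2.93%). All 6 anterior libraries lay above, or all below, the 6 posterior libraries for 133 of the same-sign genes (14.1%), against 1.04% of all genes tested. The same libraries enter both the call and this share, so the higher share describes the called genes and does not test them.

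**Figure D1:**
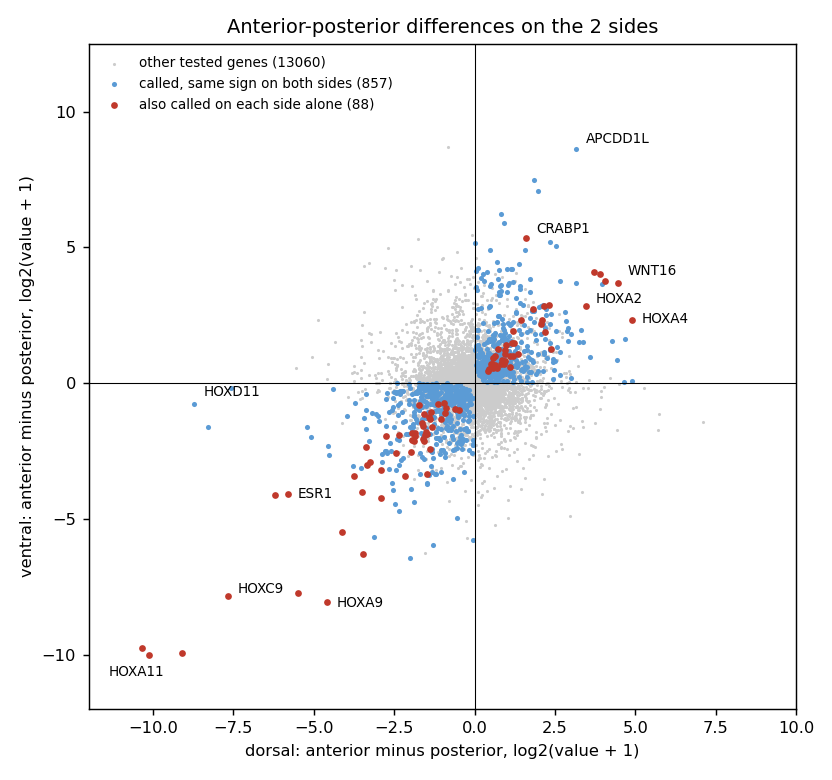
Difference between anterior and posterior skin for each gene tested, on the dorsal side (horizontal axis) and the ventral side (vertical axis), both as anterior minus posterior log2(value + 1). Blue and red points are the 945 called genes with the same sign on both sides, and the 88 red points were also called on each side alone; HOXA11, HOXC9 and HOXA9 lie far down to the left, while HOXD11 lies near zero on the ventral axis.

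The counts depended on single libraries and numbers. The same-sign count was 523 without the libraries numbered 3, 207 without those numbered 8 and 501 without those numbered 11, against 945 with all. It was 625 without dorsal anterior library 3 and 565 without dorsal posterior library 11. With the numbers left out of the model it was 368, and all 368 of these genes were among the 945. In the 12 libraries compared, which held 12852638 to 22994609 reads each, the side accounted for 90.9% of the first principal component. The number accounted for 96.9% of the second component and the end for 67.0% of the third.

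Ventral anterior library 3 stood apart from ventral anterior libraries 8 and 11. After removal of the number effect, 650 genes (4.64% of those tested) were at least 4-fold away in it from the mean of the other libraries of its location, against 189 to 404 genes in the 11 other libraries compared. Flank library 3, outside the contrast but in the fit, stood apart from its location in 633 genes (4.52%). The mesothelium and kidney markers, of which 2 of 4 are in the table, summed to 653 in ventral anterior library 3. The sum was 9.20 and 8.72 in ventral anterior libraries 8 and 11 and at most 87.8 in the posterior libraries. The 653 was all WT1, and PAX2, the other marker, was at most 9.20 in any anterior library. Leaving ventral anterior library 3 out gave 1028 same-sign genes, and values without it are given below where it moved a named gene furthest. Without it the same-sign higher members were 2 of the epidermis list and of the BMP and TGF-beta list, 1 of the feather placode list and of the secreted regulators of melanocytes, and none of the FGF and Schwann cell lists, each 1 fewer than with it. The dermal list held 4 higher and 6 lower genes without it, each 2 more than with it. The melanocyte, hedgehog and Notch, mesothelium, and cell cycle lists gained 1 higher gene each, the forkhead and smooth muscle lists 1 lower, and the regional homeobox list 1 in each direction.

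Genes of the paralog groups nearest the head were higher in anterior skin on both sides where they were called with the same sign, and those of the groups nearest the tail were lower. Of 19 HOX genes tested, 3 were called higher and 9 lower in anterior skin with the same sign on both sides. The shares over all genes tested were 3.37% higher and 3.38% lower. A further 3 HOX genes were called with opposite signs. These genes were known to differ from earlier results, so the counts describe them and do not test the group.

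HOXA2, HOXA3 and HOXA4 were the 3 same-sign genes among 7 tested of groups 1 to 5. HOXA2, which patterns the hindbrain and pharyngeal arches, had 2565, 2429 and 2485 in dorsal anterior and 3021, 2778 and 2957 in ventral anterior skin, against 173, 274 and 242 in dorsal posterior and 361, 331 and 560 in ventral posterior skin. The ends did not overlap on either side, and anterior skin was higher by 3.15 ± 0.24 on the log2 scale (SE; limma adjusted p = 9.3e-07). HOXA3 had 2011, 2189 and 2047 in dorsal anterior and 4105, 4291 and 5647 in ventral anterior skin, against 764, 794 and 748 in dorsal posterior and 907, 947 and 946 in ventral posterior skin. Its anterior level was higher ventrally than dorsally while the posterior levels lay close together, and the averaged difference was 1.87 ± 0.12 (adjusted p = 1.2e-07). HOXA4 had 595, 1097 and 262 in dorsal anterior and 277, 192 and 184 in ventral anterior skin, against 14.1, 29.8 and 13.1 in dorsal posterior and 30.3, 60.2 and 41.0 in ventral posterior skin, a difference of 3.60 ± 0.27 (adjusted p = 6.6e-07). Each of the 3 genes was called on each side alone and under all 25 alternative settings.

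The other genes of these groups did not share a sign. HOXD4 was higher in dorsal anterior skin (1787, 1724 and 1442) than in dorsal posterior skin (194, 253 and 215), but ventrally its values overlapped, with 228, 54.3 and 82.8 in anterior against 129, 129 and 102 in posterior skin. Its averaged difference of 1.33 was called by limma (adjusted p = 0.0050) and was lost without the libraries numbered 11 (1.39, adjusted p = 0.069). The median of the 7 genes was also 1.33, against 0.00 over all genes tested. By limma, HOXB3 differed by 0.19 (adjusted p = 0.88), HOXD3 by 0.13 (0.81) and HOXB5 by -1.20 (0.075), and none of them was called. Without ventral anterior library 3 the HOXB3 average was -0.49 (adjusted p = 0.31), with a ventral difference of -1.93 (0.012) against -0.56 with it, and the HOXD3 average was -0.060 (0.91). HOXB5 was called by DESeq2 (-1.18, adjusted p = 0.020), and by limma without the libraries numbered 11 (-1.55, 0.0067) or without ventral anterior library 11 alone (-1.55, 0.018).

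The 5 genes of groups 6 to 8 were all called lower in anterior skin, and all 5 were called on the ventral side and none on the dorsal. HOXB7 had 0, 1.84 and 0 in ventral anterior against 105, 73.9 and 56.4 in ventral posterior skin, or 2 against 209 reads, while dorsally 159, 123 and 32.2 in anterior skin overlapped 84.6, 113 and 72.3 in posterior skin. The ventral ratio of posterior over anterior level was 121 (95% counting interval 33.0 to 1002). HOXA7 had 37.0, 11 and 27.2 in ventral anterior against 267, 209 and 209 in ventral posterior skin, while dorsally 256, 291 and 201 in anterior stood against 385, 328 and 231 in posterior skin with overlap. The averaged difference was -2.90 ± 0.27 for HOXB7 and -1.80 ± 0.20 for HOXA7 (limma adjusted p = 8.3e-06 and 4.0e-05). The dorsal value of HOXB7 was -0.04 by limma and 0.06 by edgeR and by DESeq2, so its shared sign rests on a value near zero. HOXB8 had 2 reads in ventral anterior and 44 in ventral posterior skin, and its call, at -2.40, was lost without the libraries numbered 3 (-2.19, adjusted p = 0.086) or 8 (-1.90, 0.17). HOXA6 and HOXC6 had opposite signs on the sides and were called only ventrally, and HOXC6 had no read in ventral anterior skin, which puts it at least 15-fold lower there. For 4 of the 5 genes the sides differed: the dorsal difference minus the ventral one was 5.73 for HOXB7, 2.96 for HOXA7, 3.24 for HOXA6 and 4.36 for HOXC6, each called by limma, and 1.96 for HOXB8, not called (adjusted p = 0.34). The averaged call of HOXA6 was lost without the libraries numbered 8 (-1.01, adjusted p = 0.15) or 11 (-1.41, 0.13), and that of HOXC6 without those numbered 3 (-1.78, 0.066) or 8 (-1.84, 0.13). In the 12 compared libraries with no interaction term none of the 5 genes was called. The median of the 5 genes was -1.80, made up of -0.04 dorsally and -3.37 ventrally.

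Of 7 genes tested in groups 9 to 13, 6 were called lower in anterior skin with the same sign on both sides, and 5 had every anterior library below every posterior library. Over all genes tested, 3.38% were called lower in this way, and 1.04% had ends without overlap in either direction. HOXA11, which acts in the limb and the caudal trunk, had 4.38, 0 and 0 in dorsal anterior and 1.95, 0 and 0 in ventral anterior skin, against 2346, 2093 and 2338 in dorsal posterior and 1282, 1101 and 1403 in ventral posterior skin. It was near absent from anterior skin, with 7 reads against 11030 in posterior skin, and the fitted difference of -10.05 ± 0.52 (adjusted p = 2.1e-08), depends on the pseudocount. HOXC9 had 0, 4.41 and 0 in dorsal anterior and 0, 1.84 and 4.36 in ventral anterior skin, against 395, 380 and 311 in dorsal posterior and 640, 600 and 482 in ventral posterior skin (-7.77 ± 0.47, adjusted p = 1.2e-07). HOXA9 had 41.2, 67.0 and 3.39 in dorsal anterior and 3.89, 1.84 and 1.09 in ventral anterior skin, against 501, 534 and 667 in dorsal posterior and 766, 745 and 947 in ventral posterior skin (-6.33 ± 0.44, adjusted p = 4.4e-07). The 3 genes kept their call under every alternative, and HOXA9 differed more ventrally than dorsally (adjusted p of the difference between sides 0.046).

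HOXB9 and HOXD10 followed the same direction at lower levels. HOXB9 had 2.63, 2.64 and 0.846 in dorsal anterior and 0, 0 and 1.09 in ventral anterior skin, against 34.9, 36.8 and 23.0 in dorsal posterior and 107, 201 and 47.2 in ventral posterior skin, a difference of -4.89 ± 0.49 (adjusted p = 1.7e-05). HOXD10 had 1.75, 2.64 and 12.7 in dorsal anterior and 9.73, 0 and 0 in ventral anterior skin, against 386, 503 and 280 in dorsal posterior and 34.5, 16.4 and 93.3 in ventral posterior skin, and differed by -5.17 ± 0.65 (adjusted p = 2.0e-04), or by -5.75 without ventral anterior library 3. HOXD11 had no read in any anterior library, against 676, 777 and 148 in dorsal posterior and 0, 0 and 4.10 in ventral posterior skin. Against a floor of 3 reads over the anterior group it was at least 711-fold lower in anterior skin, nearly all of it dorsal: the ventral posterior skin held 4 reads in all. The shared sign of HOXD11 thus rests on ventral posterior library 11, with a ventral difference of -0.78 (limma adjusted p = 0.76). Its averaged call was lost in the 12 compared libraries with no interaction term (-4.76, limma adjusted p = 0.11). HOXD13, also with no anterior read, had 11.6, 10.2 and 3.28 in dorsal posterior skin and none in ventral posterior skin, was at least 11-fold lower in anterior skin and was not called (adjusted p = 0.18). The median of the 7 genes was -5.17, or -6.33 with HOXD11 and HOXD13 at their bounds.

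**Figure D2:**
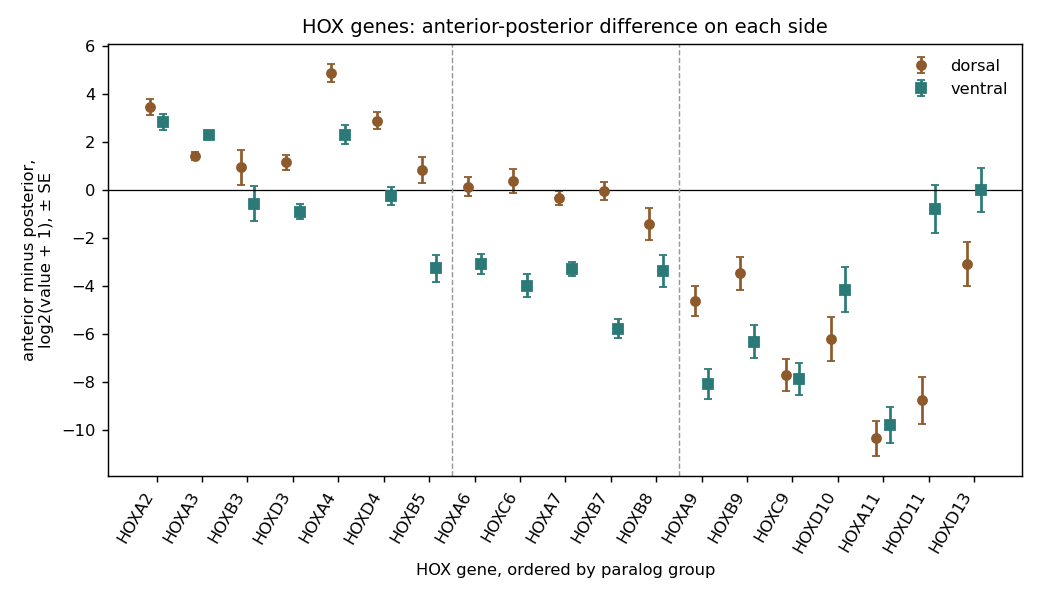
Anterior minus posterior difference in log2(value + 1) for 19 HOX genes, ordered by paralog group, with the dorsal side as circles and the ventral side as squares; bars are standard errors from limma, and dashed lines separate groups 1 to 5, 6 to 8 and 9 to 13. HOXA2, HOXA3 and HOXA4 lie above zero on both sides, groups 6 to 8 lie near zero dorsally except HOXB8 and below it ventrally, and HOXA9, HOXB9, HOXC9, HOXD10 and HOXA11 lie below zero on both sides.

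The turn from higher to lower fell inside the HOXA cluster. On chromosome 2, by the coordinates of the deposited table, whose genome build is not given in the sources used here, HOXA2 (52555610 to 52557425), HOXA3 (52562758 to 52565510) and HOXA4 (52583050 to 52584502) were higher in anterior skin. HOXA7 (52610517 to 52612212), HOXA9 (52621121 to 52622902) and HOXA11 (52641989 to 52644396) were lower, all on the minus strand. Of the entries between HOXA4 and HOXA7, HOXA6 (52600825 to 52602843) differed by 0.16 dorsally and by -3.08 ventrally, and an unnamed entry by 2.73 dorsally and by -0.16 ventrally. Along the cluster the differences were thus below zero from the unnamed entry on in ventral skin, and from HOXA7 on in dorsal skin, where HOXA7 itself was not called.

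The locations outside the contrast did not all fall between the ends for these genes. HOXA2 averaged 396 ± 175 in the saddle (SD, n = 3), against 2493 ± 67.9 in dorsal anterior and 230 ± 51.2 in dorsal posterior skin. HOXA11 averaged 38.6 ± 37.2 in the saddle, 0.605 ± 1.05 in the ventral-most skin and 39.4 ± 11.3 in the flank, so that of the 7 locations only the 2 posterior ones held it at a mean above 1000. HOXC9 averaged 696 ± 30.8 in the saddle and 1158 ± 418 in the ventral-most skin, above its means of 362 and 574 in the dorsal and ventral posterior skin. HOXA9 likewise averaged 913 ± 237 in the saddle and 1430 ± 506 in the flank, against 567 and 819 in the dorsal and ventral posterior skin. HOXA11 thus marked the posterior ends, while HOXA9 and HOXC9 were low in the 2 anterior locations and present in the 5 others.

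**Figure D3:**
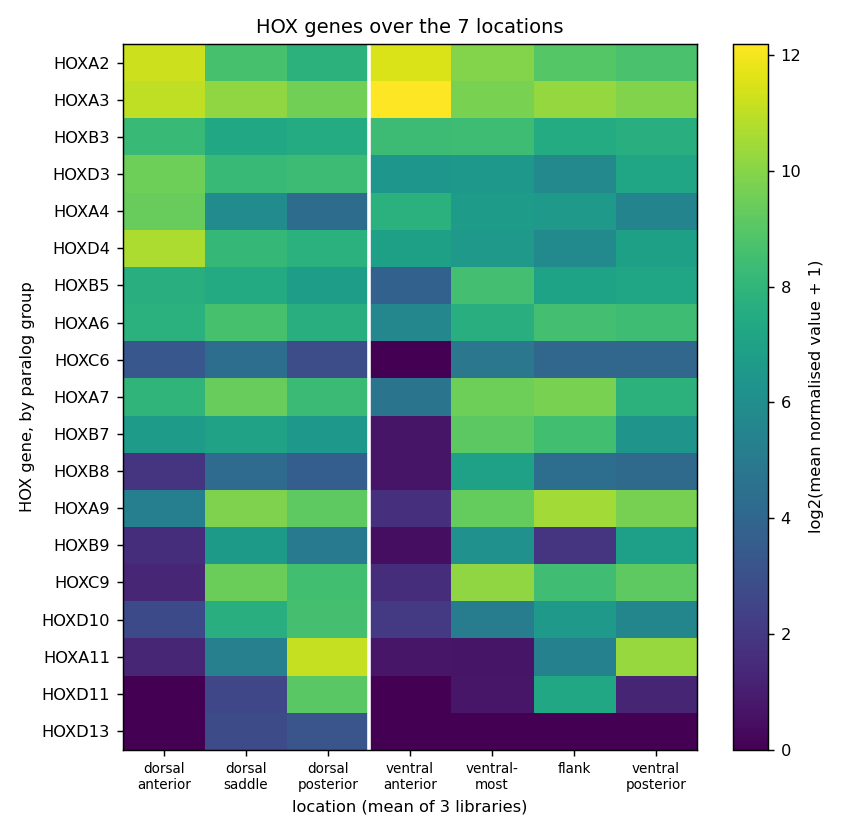
Mean level of 19 HOX genes, ordered by paralog group, at the 7 skin locations as log2(mean normalised value + 1), each from 3 libraries, with dorsal locations left of the white line and ventral ones right of it. HOXA11 is bright in the dorsal and ventral posterior columns alone, and HOXA9 and HOXC9 are dark in the 2 anterior columns.

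Outside the HOX clusters, the genes with a symbol that were most raised in anterior skin included secreted factors and transcription factors. WNT16, a WNT ligand, had 532, 241 and 760 in dorsal anterior and 93.4, 256 and 1000 in ventral anterior skin, against 16.6, 10.2 and 47.1 in dorsal posterior and 10.5, 28.7 and 31.8 in ventral posterior skin. The ends did not overlap, WNT16 was called on each side alone, and its averaged difference of 4.07 ± 0.49 (adjusted p = 1.4e-04) held under every alternative. CRABP1, a cytoplasmic binding protein for retinoic acid, had 6100, 5561 and 5436 in dorsal anterior and 28770, 41790 and 37281 in ventral anterior skin, against 1943, 1968 and 1730 in dorsal posterior and 1130, 443 and 1350 in ventral posterior skin (3.47 ± 0.28, adjusted p = 2.2e-06). It was called on each side, more strongly ventrally, where the difference was 5.34 against 1.60 dorsally. SPON2, a secreted matrix protein, has 2 entries in the table under the same symbol, which are reported as uncertain because reads could be split between them, and both were higher in anterior skin, by 3.95 ± 0.50 and 3.91 ± 0.58.

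DLX1, APCDD1L and SALL1 had the same sign on both sides and were called alone on the ventral side only. The sides differed by the test of that difference for DLX1 (adjusted p = 0.050), and not for APCDD1L (0.20) or SALL1 (0.17). Without ventral anterior library 3 the same limma test called DLX1, APCDD1L and SALL1 (adjusted p = 0.027, 0.036 and 0.016). DLX1, a homeobox factor of the face and limb, had 8.76, 7.05 and 9.31 in dorsal anterior and 137, 726 and 1312 in ventral anterior skin, against 1.66, 5.49 and 0 in dorsal posterior and 0, 2.74 and 5.13 in ventral posterior skin. Its averaged difference was 4.67 ± 0.74 (adjusted p = 0.0012), and the dorsal difference of 1.85 was not called alone. APCDD1L, related to an inhibitor of WNT signalling, had 329, 129 and 34.7 in dorsal anterior and 196, 12655 and 8146 in ventral anterior skin, against 63.9, 2.35 and 8.76 in dorsal posterior and 0, 16.4 and 17.4 in ventral posterior skin. Ventral anterior library 3 was far below the other ventral anterior libraries, and the difference was 5.90 ± 1.04 with it (adjusted p = 0.0030) and 6.82 without it (2.9e-04). It was not called without the libraries numbered 8 (5.16, adjusted p = 0.094) or 11 (6.19, 0.058). SALL1, a zinc finger factor of limb and kidney, stood at 4.52, or 5.47 without ventral anterior library 3, and was lost without number 8 (4.47, adjusted p = 0.15) or 11 (3.08, 0.11).

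Lower in anterior skin on both sides were genes for a hormone receptor, transcription factors and matrix proteins. ESR1, the oestrogen receptor alpha, had 5.25, 25.6 and 11 in dorsal anterior and 5.84, 11 and 13.1 in ventral anterior skin, against 910, 1601 and 234 in dorsal posterior and 150, 338 and 113 in ventral posterior skin. The highest anterior library was below the lowest posterior one, and ESR1 was lower by -4.95 ± 0.55 on the log2 scale (adjusted p = 5.9e-05), called on each side and under every alternative. Of the 9 steroid and thyroid hormone receptor genes tested it was the single one called, against 3.38% of all genes tested called lower. The median of the list was 0.02.

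FOXP2, a forkhead factor, had 573, 634 and 678 in dorsal anterior and 710, 956 and 761 in ventral anterior skin, against 1778, 1472 and 1664 in dorsal posterior and 4629, 5100 and 3535 in ventral posterior skin (-1.91 ± 0.16, adjusted p = 2.2e-06). Its saddle mean of 1401 lay between the dorsal ends. PITX1, a hindlimb factor, differed by -3.25 but kept its call in only 14 of 25 settings. It was lost without the libraries of any 1 number (-2.42 to -3.72, adjusted p 0.066 to 0.20). It was also lost without dorsal posterior library 3, dorsal anterior or posterior library 11, ventral anterior library 8 or 11, or ventral posterior library 8 or 11 (-2.68 to -3.22, adjusted p 0.051 to 0.076).

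SMOC2, a secreted matricellular protein, had 736, 1144 and 967 in dorsal anterior and 100, 1011 and 816 in ventral anterior skin, against 6429, 7890 and 6687 in dorsal posterior and 6737, 7630 and 10682 in ventral posterior skin. The gap was wide on both sides; the averaged difference was -3.56 ± 0.36 (adjusted p = 2.6e-05) with ventral anterior library 3 and -3.07 without it. NDNF, a secreted neurotrophic factor, had 268, 97.8 and 35.5 in dorsal anterior and 2864, 179 and 213 in ventral anterior skin, against 2817, 736 and 688 in dorsal posterior and 7535, 8254 and 7265 in ventral posterior skin. Its value in ventral anterior library 3 reached the dorsal posterior range, and the difference was -3.75 ± 0.58, or -4.21 without that library, with the call lost without the libraries numbered 8 (-3.53, adjusted p = 0.056). EPHA3, an ephrin receptor of cell guidance, had 1514, 1860 and 1095 in dorsal anterior and 2107, 999 and 1400 in ventral anterior skin, against 5168, 2773 and 4777 in dorsal posterior and 20972, 11984 and 12832 in ventral posterior skin (-2.43 ± 0.24, adjusted p = 1.5e-05). EPHA3 led the 4 guidance genes called lower among 30 tested, against 1 called higher, and the list's median was -0.18. Of all genes tested, 3.38% were called lower and 3.37% higher with the same sign.

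DMRT2, a DM-domain factor on chromosome Z, had 5212, 3389 and 3232 in dorsal anterior and 833, 208 and 32.7 in ventral anterior skin, against 14393, 8863 and 6829 in dorsal posterior and 18950, 9491 and 8121 in ventral posterior skin. All anterior libraries were lower (-3.64 ± 0.46, adjusted p = 2.0e-04), and the dorsal difference of -1.31 was not called alone. Without ventral anterior library 3 the average was -4.05. GATA5, a zinc finger factor of the lateral plate, had 790 in ventral anterior library 3 against 1.84 and 6.54 in ventral anterior libraries 8 and 11, and 3261, 2729 and 1245 in ventral posterior skin. Its averaged difference of -4.22 (adjusted p = 0.047) held in only 5 of 25 settings and was -5.62 (adjusted p = 7.9e-04) without that library.

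**Figure D4:**
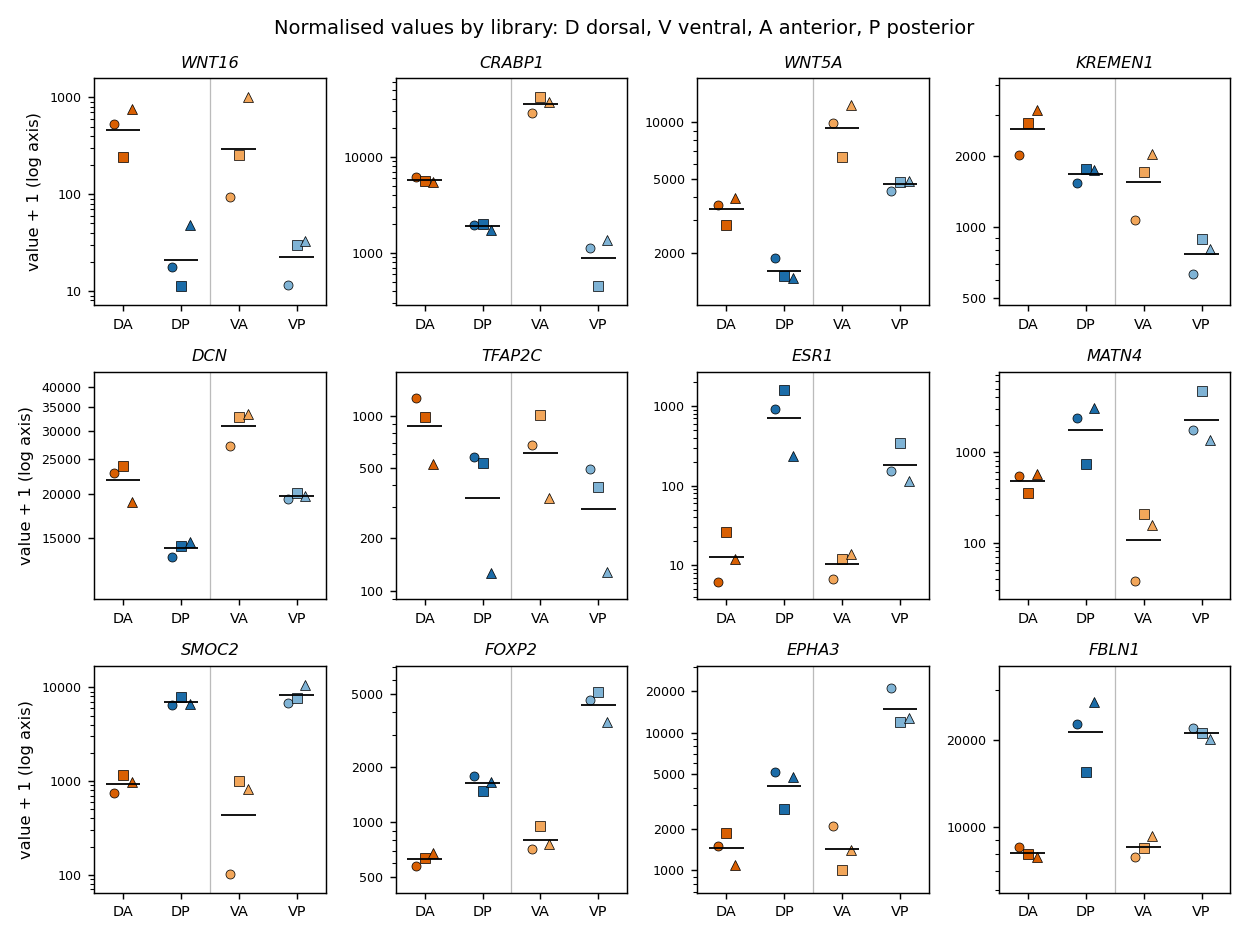
Normalised value plus 1, on log axes, of 12 genes in the 12 libraries compared: dorsal anterior (DA), dorsal posterior (DP), ventral anterior (VA) and ventral posterior (VP), with circles, squares and triangles for numbers 3, 8 and 11 and horizontal lines at the mean on the log scale. In WNT16, CRABP1, WNT5A, KREMEN1, DCN and TFAP2C the anterior means lie above the posterior means on each side, and in the other 6 genes below them.

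Of 29 WNT genes tested, 7 were called higher and 2 lower in anterior skin with the same sign, and 20 were not called (median 0.34). Over all genes tested, 3.37% were called higher and 3.38% lower in this way, and the list counts below stand against these shares. WNT5A, a non-canonical WNT ligand, had 3613, 2830 and 3948 in dorsal anterior and 9883, 6535 and 12295 in ventral anterior skin, against 1890, 1518 and 1469 in dorsal posterior and 4313, 4788 and 4880 in ventral posterior skin. The ends did not overlap within either side, and the difference was 1.04 ± 0.16 (adjusted p = 8.1e-04). KREMEN1, a receptor through which DKK proteins inhibit WNT signalling, had 2030, 2755 and 3157 in dorsal anterior and 1074, 1717 and 2043 in ventral anterior skin, against 1534, 1769 and 1745 in dorsal posterior and 633, 892 and 807 in ventral posterior skin (0.82 ± 0.11, adjusted p = 2.8e-04). Both held under every alternative. The other called members, outside the rule for named genes and named here to complete the count, were WNT2, WNT5B, NOTUM and SOSTDC1, higher by 1.29, 1.10, 1.61 and 0.58, and SFRP2 and NKD1, lower at -2.0 and -0.82.

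Retinoic acid genes had 3 of 10 called higher and none lower (median 0.65; 4 had an unadjusted p under 0.05), against 3.37% of all genes tested called higher. These were CRABP1, the synthesis enzyme ALDH1A2 and the receptor RARA. RARA had 139, 158 and 115 in dorsal anterior and 145, 161 and 172 in ventral anterior skin, against 59.7, 65.8 and 65.7 in dorsal posterior and 120, 101 and 105 in ventral posterior skin (0.82 ± 0.17, adjusted p = 0.0089), and was lost without the libraries numbered 8 (0.75, adjusted p = 0.22). ALDH1A2 had 195, 1931 and 1920 in ventral anterior against 64.8, 38.3 and 53.3 in ventral posterior skin, while the dorsal ends overlapped. Its averaged difference of 2.24 was 2.79 without ventral anterior library 3 and was lost without number 8 (1.91, adjusted p = 0.30) or 11 (1.84, 0.18), and without dorsal posterior library 11 (2.04, 0.056), ventral anterior library 8 (2.03, 0.051) or ventral posterior library 8 (2.02, 0.053). The BMP and TGF-beta list had 3 higher and 2 lower of 26 (median 0.08), the FGF list 1 and 1 of 21 (median 0.07), and the hedgehog and Notch list none of 14 by limma, with 1 at an unadjusted p under 0.05 (median 0.17). In the last list edgeR called none and DESeq2 called 1.

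Melanocyte and melanin genes were higher in anterior skin where they were called. Of 20 tested, 5 were called higher and none lower with the same sign, against 3.37% of all genes tested, and the median was 1.30. The summed level of the 3 defining markers in the table, TYR, TYRP1 and SLC45A2, ran from 1885 to 2509 in dorsal anterior against 662 to 1310 in dorsal posterior skin, and from 66.2 to 415 in ventral anterior against 9.41 to 51.3 in ventral posterior skin. The sums did not overlap within either side, though none of the 3 markers was called alone (adjusted p 0.11 to 0.33). In bulk skin, fewer cells of a type and less RNA per cell cannot be told apart, here or in any other comparison.

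DCT, a melanin synthesis enzyme, had 424, 758 and 739 in dorsal anterior and 31.1, 49.7 and 227 in ventral anterior skin, against 184, 171 and 300 in dorsal posterior and 14.6, 21.9 and 90.3 in ventral posterior skin (1.36 ± 0.33, adjusted p = 0.019). MITF, the regulator of melanocyte identity, had 378, 372 and 605 in dorsal anterior and 437, 416 and 1048 in ventral anterior skin, against 349, 285 and 301 in dorsal posterior and 297, 263 and 414 in ventral posterior skin (0.68 ± 0.16, adjusted p = 0.015). The receptor KIT had 989, 2553 and 2179 in dorsal anterior and 132, 255 and 453 in ventral anterior skin, against 510, 651 and 379 in dorsal posterior and 181, 125 and 132 in ventral posterior skin (1.30 ± 0.32, adjusted p = 0.021). Dorsally the ends did not overlap for any of the 3 genes. Ventrally they overlapped for DCT and KIT and only just separated for MITF. The calls were fragile. DCT held in 17, MITF in 20 and KIT in 16 of 25 settings, and each was lost without the libraries numbered 8 (adjusted p 0.18 to 0.24) or 11 (0.075 to 0.27) and without dorsal posterior library 11 (1.19, 0.58 and 1.10, adjusted p 0.052 to 0.063). DCT was also lost without dorsal anterior library 3 or 8 or ventral anterior library 11 (1.18 to 1.29), and KIT without dorsal anterior library 8, ventral anterior library 11, or ventral posterior library 8 or 11 (1.13 to 1.21). SOX10, a neural crest factor also on the Schwann cell list, was higher by 2.06 and held in 10 of 25. DESeq2 called 9 members higher and 1 lower with the same sign, and edgeR 5 and none.

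ASIP, the agouti signalling protein that turns melanocytes to pale pigment, did not share a sign. It had 144, 563 and 138 in dorsal anterior and 5092, 447 and 1163 in ventral anterior skin, against 33.2, 44.7 and 5.47 in dorsal posterior and 5534, 4795 and 2952 in ventral posterior skin. The dorsal difference was 3.38 and the ventral one -1.63, and these differed (adjusted p = 0.020), while the average of 0.88 was not called (adjusted p = 0.38). Without ventral anterior library 3 the ventral difference was -2.46 and the average 0.46, again not called. KITLG, the ligand of KIT, averaged 0.41 (limma adjusted p = 0.094), and EDNRB -0.79 (limma adjusted p = 0.16). Each stayed uncalled in 24 of 25 settings. KITLG was called by DESeq2 (0.42, adjusted p = 0.044), and EDNRB by limma without dorsal posterior library 8 (-1.08, adjusted p = 0.030).

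Skin structural genes went both ways. Of 22 dermal fibroblast and matrix genes tested, 2 were called higher and 4 lower in anterior skin with the same sign (median -0.12), against 3.37% and 3.38% of all genes tested. FBLN1, a fibulin of elastic matrix, had 8478, 8047 and 7867 in dorsal anterior and 7826, 8447 and 9283 in ventral anterior skin, against 22854, 15495 and 27275 in dorsal posterior and 22027, 21191 and 20213 in ventral posterior skin (-1.35 ± 0.17, adjusted p = 1.9e-04). DCN, a collagen-binding proteoglycan, had 22861, 23935 and 19018 in dorsal anterior and 27266, 32778 and 33501 in ventral anterior skin, against 13281, 14325 and 14640 in dorsal posterior and 19396, 20175 and 19718 in ventral posterior skin (0.64 ± 0.08, adjusted p = 1.3e-04). FBLN1 was thus alike on both sides at each end, with all anterior libraries below all posterior ones, while DCN separated the ends within each side. COL14A1, a fibril-associated collagen, was lower at -1.37 ± 0.11 (adjusted p = 1.6e-06), by more on the ventral side (-2.19) than on the dorsal (-0.56, adjusted p = 0.050). The 3 genes held under every alternative.

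Epidermal genes had 3 of 14 called higher and none lower (median 0.21), against 3.37% of all genes tested called higher, led by TFAP2C, an AP-2 factor of the epidermis. The other called members were the tight junction gene CLDN1 (1.06), lost without the libraries numbered 8 (1.21, adjusted p = 0.064) or 11 (0.98, 0.15), and the epidermal factor GRHL1 (0.76). The ventral difference of GRHL1 was 0.09 (limma adjusted p = 0.93), or -0.17 without ventral anterior library 3. Its shared sign thus rests on a ventral value near zero. GRHL1 held in 13 of 25 settings and was lost without the libraries of any 1 number (0.59 to 0.88, adjusted p 0.052 to 0.25). It was also lost without the number in the model, in both fits of the 12 compared libraries alone, and without ventral anterior library 3 (0.63, 0.063), dorsal anterior library 8 (0.70, 0.078), or any single library numbered 11 of the 4 locations (0.66 to 0.78, 0.052 to 0.083). TFAP2C had 1259, 981 and 531 in dorsal anterior and 679, 1005 and 339 in ventral anterior skin, against 581, 532 and 125 in dorsal posterior and 494, 389 and 127 in ventral posterior skin. Values were lowest in library 11 at each of these 4 locations. The anterior library exceeded its posterior partner in all 6 pairs, and the difference was 1.22 ± 0.19 (adjusted p = 9.5e-04), lost without the number in the model (adjusted p = 0.26). The summed epidermal markers, 4 of 8 in the table, did not move one way: they ran from 26956 to 34373 in dorsal anterior against 16407 to 18745 in dorsal posterior skin, and from 7748 to 11268 in ventral anterior against 12678 to 16511 in ventral posterior skin. Their part in these 3 calls was not tested. Feather placode and dermal condensation genes had 2 called higher and 4 lower of 24 (median -0.04). TWIST2, a bHLH factor of early dermis, was lower in every anterior library, with 738, 792 and 493 in dorsal anterior and 764, 759 and 692 in ventral anterior skin, against 911, 848 and 1982 in dorsal posterior and 2074, 1922 and 1686 in ventral posterior skin (-1.08 ± 0.20, adjusted p = 0.0038; -1.26 and 0.054 without the libraries numbered 8). The bHLH factor TWIST1 was also lower, at -0.98, and was lost without number 8 (-1.01, adjusted p = 0.052) and with the number left out of the model (0.14).

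The remaining lists moved in few members. Of 20 regional homeobox genes outside the HOX clusters, 3 were called higher and 2 lower (median 0.14). Of 29 forkhead, SOX, zinc finger and bHLH regulators, 1 was called higher and 6 lower (median -0.37), and of 5 T-box genes 1 was higher (median -0.77). Of 12 secreted regulators of melanocytes 2 were called higher (median 0.39), and of 6 HOX cofactors none by any tool, with none at an unadjusted p under 0.05 (median -0.04). Of 14 hypoxia and glycolysis genes 2 were called higher and 1 lower (median -0.01), and the 11 stress and immediate early genes held 1 called higher (median 0.15).

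Some of the steepest named differences rested on few reads or libraries. FGL1, a secreted fibrinogen-like protein, had 34.1, 22.0 and 18.6 in dorsal anterior and 52.5, 43.2 and 86.1 in ventral anterior skin, against 0, 3.14 and 4.38 in dorsal posterior and 3.14, 0 and 21.5 in ventral posterior skin. Its difference of 3.43 ± 0.67 (adjusted p = 0.0057) was lost without the libraries numbered 3 (2.94, 0.059) or 8 (3.16, 0.086). KCNK2, a potassium channel, was higher by 2.91 and was lost without number 8 (3.06, adjusted p = 0.16). CBLN4, a secreted synapse organiser, was lower at -3.47 and was lost without number 11 (-3.49, adjusted p = 0.14).

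**Figure D5:**
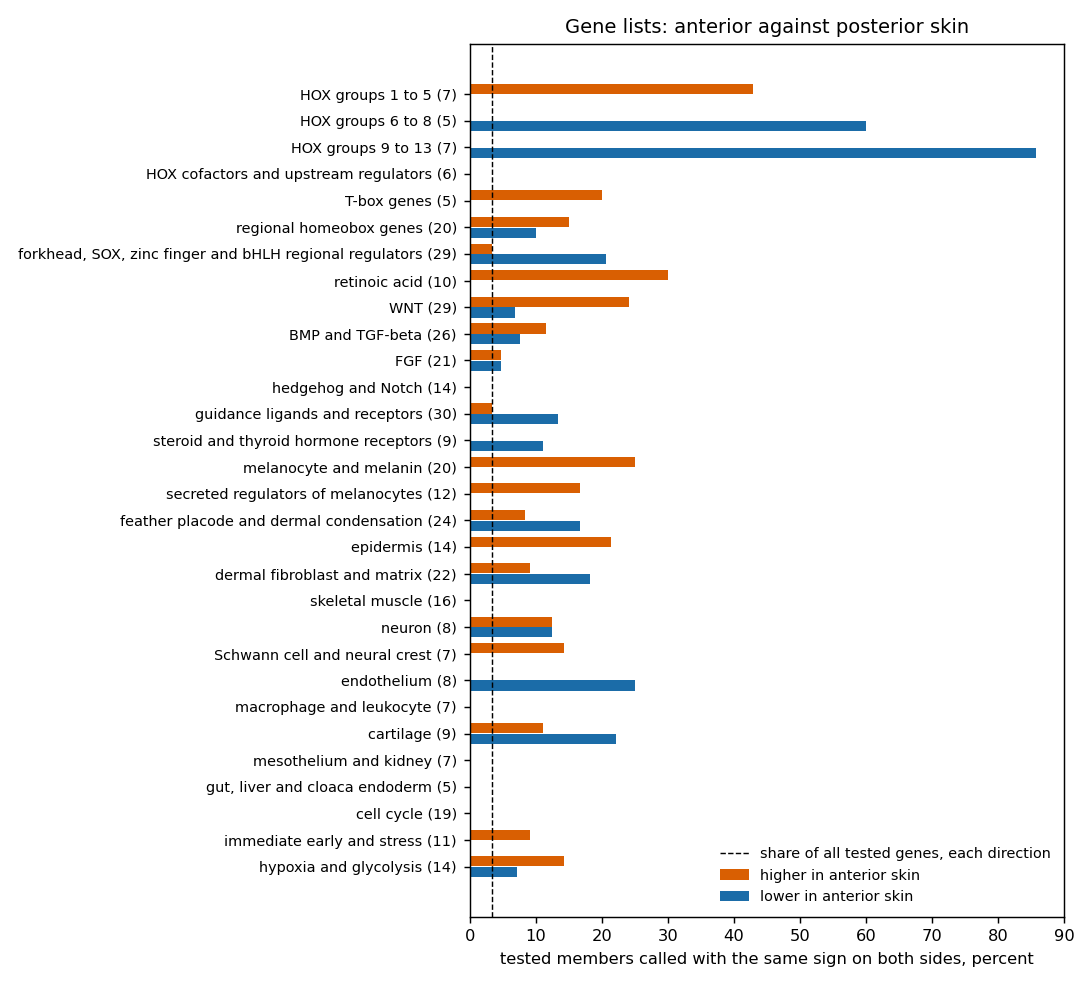
Share of tested members of each gene list that were called with the same sign on both sides, higher (orange) or lower (blue) in anterior skin, for the lists with at least 5 tested genes (number in brackets); the dashed line marks the 3.37% of all tested genes called higher, close to the 3.38% called lower. HOX groups 6 to 13 have blue bars only, while the WNT, retinoic acid, melanocyte and epidermis lists have longer orange bars.

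Markers of tissue under the skin were present and did not all follow the ends. Of 16 skeletal muscle genes tested none was called by limma, edgeR or DESeq2, none had an unadjusted p under 0.05 and 1 had the same sign on both sides; the list's median was -1.48 dorsally and 2.21 ventrally. Their summed defining markers, 3 of 6 in the table, ran from 990 to 1996 in ventral anterior against 22.0 to 689 in ventral posterior skin, and overlapped dorsally. Neuron markers, 5 of 5 in the table, summed to 755 to 1643 in anterior against 554 to 1113 in posterior libraries. NEFM, a neurofilament gene higher in anterior skin by 3.23 (adjusted p = 0.010), was lost without number 3 (2.98, 0.089) or 8 (3.24, 0.15), and DCX, also a neuronal gene, was lower at -1.30. Cartilage markers, 4 of 4 in the table, summed to 543 to 1057 in anterior against 641 to 1378 in posterior libraries, with overlap. None of the 3 tested was called (limma adjusted p 0.34 to 0.84). On the cartilage list, MATN4, a matrilin, had 547, 355 and 566 in dorsal anterior and 37.0, 208 and 156 in ventral anterior skin, against 2383, 744 and 3091 in dorsal posterior and 1747, 4762 and 1368 in ventral posterior skin (-3.13 ± 0.47, adjusted p = 9.7e-04). CNMD, on the same list, went the other way, higher in anterior skin by 1.05 (limma adjusted p = 0.040), and held in 12 of 25 settings. The 2 erythroid markers summed to 4749 to 25996 in anterior against 7156 to 55176 in posterior libraries, and the gut and liver markers TTR, HNF4A and CDX2 were at 0 in all 12. The part of these tissues in the results was not tested. By list, 1 gene was called higher and 1 lower of 8 neuron genes (median 0.33), 1 and 2 of 9 cartilage genes (median -0.36), none and 2 of 8 endothelium genes (median -0.18), and 1 higher of 7 Schwann cell genes (median 0.23) and of 4 smooth muscle genes (median 0.18). No same-sign gene was called by limma among 3 erythroid (median -0.94), 7 leukocyte (-0.46), 7 mesothelium and kidney (0.23), 5 gut and liver (0.52) and 2 heart genes (-1.34), with 0, 2, 3, 0 and 1 of them at an unadjusted p under 0.05. In the same lists DESeq2 called 0, 1, 1, 0 and 0 same-sign genes, and edgeR none. Of 19 cell cycle genes none was called by limma or edgeR and 2 by DESeq2, with 2 at an unadjusted limma p under 0.05 (median 0.04).

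Among the 88 genes called on each side alone, 57 had a symbol. Of the 75 called genes named by rule, 23 kept their call under all 25 alternatives. The next 4 genes come from that list, fall outside the rule and were chosen after their values were seen. DEPTOR, an inhibitor of mTOR signalling, had 30.6, 35.3 and 41.5 in dorsal anterior and 9.73, 42.3 and 56.7 in ventral anterior skin, against 220, 409 and 621 in dorsal posterior and 96.2, 145 and 258 in ventral posterior skin (-2.88, adjusted p = 6.6e-07), with no overlap. MXRA5, a matrix protein, had 1898, 2325 and 1681 in dorsal anterior and 3810, 3244 and 3340 in ventral anterior skin, against 632, 167 and 962 in dorsal posterior and 273, 1098 and 1483 in ventral posterior skin (2.12, adjusted p = 0.0047). For MXRA5, too, every anterior library lay above every posterior one. FBLN5, an elastic fibre fibulin, was higher by 2.27 (adjusted p = 7.7e-04), in the opposite direction from FBLN1. DIXDC1, a WNT pathway scaffold, was lower at -1.26 (adjusted p = 7.8e-05), with 788, 787 and 776 in dorsal anterior and 918, 1719 and 1620 in ventral anterior skin, against 2667, 2451 and 2663 in dorsal posterior and 2625, 2735 and 1828 in ventral posterior skin.

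The saddle, ventral-most and flank skin were set between the ends. For 652 of the 945 same-sign genes (69.0%) the saddle mean lay between the dorsal anterior and dorsal posterior means, against 41.1% of all genes tested. Genes with a larger difference between the ends have more room for a mean between them. Where the dorsal ends differed by at least 1 on the log2 scale, the share was 78.5% of 432 same-sign genes. It was 69.4% of the 1770 tested genes with such a difference. On the ventral side the ventral-most skin lay between the ends for 57.8% and the flank for 49.1% of the same-sign genes, against 34.3% and 29.2% of all genes tested. Where the ventral ends differed by at least 1, the shares were 65.6% and 56.3% of 421 same-sign genes. They were 58.6% and 49.3% of the 1703 tested genes with such a difference. These shares describe means of 3 libraries. On each side, the anterior and posterior libraries enter both the choice of genes and the shares.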

How the data were processed

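Total RNA of zebra finch embryonic skin was amplified with SMART-Seq v4 and made into Nextera XT libraries, per the labels' protocols. The submitters' processing notes name STAR 2.4.0, SAMtools, Picard, FastQC and DESeq2, and name no genome build. The deposited table holds 1 kind of value, a signal per gene: counts divided by a size factor by the authors, per the table's own title and its values. All values of a library were whole multiples of 1 step within 0.01, so whole reads were recovered for count tests and for intervals, which cover counting error only. Symbols were found for 8546 of 18202 genes, 8122 through RefSeq (bTaeGut7.mat) and 424 from deposited names.

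Genes that reached 10 in 3 or more libraries (14005) were tested with limma 3.58.1 (R 4.3.3; trend, robust) on log2(value + 1), with 7 location means and the library number as a block over all 21 libraries. The number pairs the libraries: deviations from location means correlated at 0.30 to 0.53 in all 18 same-number pairs of the 12 libraries and at -0.30 to -0.07 in the 36 others. Deviations from a location mean cancel out over its libraries, so the negative values follow from the positive ones. The text names all HOX genes tested, the 12 largest called changes in each direction with the same sign in all 6 side-by-number pairs and a mean log2 of at least 5 at the higher end, up to 3 called members of each of 33 lists, and 5 pigment genes; 1 named gene is not reported here. The comparison, members and lists were chosen with earlier results of these data known. Alternatives were edgeR 4.0.16 and DESeq2 1.42.0 on the recovered reads, other filters, pseudocounts and scaling, fits without the block or with 12 libraries, and leaving out libraries. The fit was also run on simulated data that held no effect of the number and the same change on both sides. That run cannot show how the fit handles the pairing by number or differences between sides.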

Additional observations from a re-analysis of the deposited data

Results flagged for a closer look

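The dorsal difference between anterior and posterior skin differed from the ventral one for 18 of the 82 named genes. The test was limma's test of that difference (adjusted p under 0.05). The same test called 411 of all 14005 genes tested (2.93%). Many of the named genes were chosen by their call in the same fit. The count of 18 thus describes the named genes and does not test them as a group. Without ventral anterior library 3, limma also called this difference for ALDH1A2 (adjusted p = 0.0048), HOXB3 (0.0085), DCX (0.012) and SALL1 (0.016). It also did so for GATA5 (0.028), GRHL1 (0.035), APCDD1L (0.036) and HOXA3 (0.039), while KITLG lost its call (0.051). The values below are the dorsal minus the ventral log2 difference with all libraries.

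Among HOX genes it was 5.73 for HOXB7, 4.36 for HOXC6, 4.10 for HOXB5, 3.45 for HOXA9, 3.24 for HOXA6, 3.13 for HOXD4, 2.96 for HOXA7, 2.57 for HOXA4, 2.05 for HOXD3 and -7.96 for HOXD11. HOXA4 was higher in anterior skin by more dorsally, HOXA9 lower by more ventrally, and HOXD11 lower almost wholly dorsally. HOXD3 was higher dorsally (1.16) and lower ventrally (-0.89), where it was not called.

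Among other genes it was 5.01 for ASIP, 4.66 for DMRT2, 1.87 for EPHA3, 1.63 for COL14A1, 1.20 for KITLG, -1.98 for LMO2, -3.74 for CRABP1 and -5.64 for DLX1. DMRT2, EPHA3 and COL14A1 were lower in anterior skin by more ventrally, and CRABP1 and DLX1 were higher by more ventrally. LMO2, an endothelial and blood regulator, was lower dorsally (-2.28) with a ventral value of -0.30, and KITLG was higher dorsally (1.01) with a ventral value of -0.19.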

How the results depend on the processing

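Counts are given in the order of all called genes, same-sign genes, same-sign higher, same-sign lower, genes called on each side and genes whose sides differ. They were 1034, 945, 472, 473, 88 and 411. With no replicate block they fell to 405, 368, 153, 215, 38 and 116. In the 12 compared libraries with an interaction they were 747, 683, 327, 356, 60 and 253, and without an interaction 303, 303, 153 and 150, which gives no value for single sides. DESeq2 gave 1579, 1427, 712, 715, 173 and 849, and edgeR 1029, 939, 481, 458, 77 and 373. Other pseudocounts, filters and TMM scaling gave 873 to 984 same-sign genes. Leaving out 1 number or library gave 215 to 1122 called, 207 to 1028 same-sign, 90 to 527 higher, 117 to 501 lower, 16 to 105 on each side and 8 to 493 with differing sides. The lowest count in each case was without replicate 8 and the highest without ventral anterior replicate 3. Of the genes named, 75 were called and none of these changed sign. Of these, 52 lost their call in at least 1 setting and 23 kept it in all. The losses were 38 without replicate 8, 25 without replicate 11 and 21 without replicate 3. They were 24 with no replicate block, 3 with edgeR and 1 with DESeq2. In the 12 compared libraries without an interaction, genes lost included DLX1 (limma adjusted p = 0.059), DMRT2 (0.063), APCDD1L (0.083), DCX (0.11) and LMO2 (0.13). HOXB3 (-0.49 to 0.86) and HOXD3 (-0.060 to 0.30), neither called, changed sign in 3 settings each that leave out libraries.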

Other observations

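Same-sign called genes lay next to each other on the chromosomes more often than all genes tested. Of the 435 genes higher in anterior skin on placed chromosomes, 23.2% had an adjacent tested gene also called higher, against 7.01% of all tested genes, and of the 424 lower genes 22.9% had an adjacent lower gene, against 6.84%. The longest runs were in HOX clusters: 5 adjacent genes higher, ending in HOXA2, HOXA3 and HOXA4 (chromosome 2, 52350267 to 52584502), and 4 lower from HOXA7 to HOXA11 (52610517 to 52644396). Runs of 4 lower genes also held HOXB7, HOXB8 and HOXB9 (chromosome 27, 4492449 to 4541396) and HOXD11 and HOXD10 (chromosome 7, 17031441 to 17062110). Outside HOX clusters, 4 adjacent genes from XBP1 to KREMEN1 (chromosome 15, 5713046 to 5833405) were higher and 4 ending in MTHFD1L (chromosome 3, 56596822 to 56803102) were lower. Overlap of entries or reads shared between neighbours was not tested.

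By words in the deposited gene names, the share called with the same sign, against 6.75% of all genes tested, was 33.3% of 6 fibulin, 29.2% of 65 homeobox (7 higher, 12 lower in anterior skin), 28.6% of 7 claudin, 25.0% of 8 SRY-box, 25.0% of 28 glutamate, 23.5% of 17 Wnt and 22.6% of 53 potassium genes (8 higher, 4 lower). For fibulin, claudin and SRY-box the share was in each case 1 gene higher and 1 lower. It was 6.06% of 165 zinc finger and 7.30% of 178 solute carrier genes. None of 121 ribosomal protein, 7 keratin, 7 laminin and 3 T-box genes was called in this way. These words were chosen after the data were seen. The word T-box found only 3 genes, while the list of 5 tested T-box genes described above held 1 called higher with the same sign.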
